A study of Mus musculus with 4 samples.

Results

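The genes described here are 48 genes of the interferon, Toll-like receptor, RNA sensing and NF-kB pathways of mouse, out of 21883 protein-coding genes on chromosomes 1 to 19, X and Y. They were chosen by name from their roles in these pathways. The rule uses no measured value, but it was chosen with earlier results of these data known. The study mapped the transcription factor Deaf1 on chromatin by ChIP-seq (immunoprecipitation of chromatin followed by sequencing) in the established mouse line C2C12, whose cells are myoblasts, the precursors of muscle. There were 2 ChIP libraries made with an antibody against Deaf1 and 2 input libraries made without antibody, all from the same unmodified line grown in serum-containing medium. The labels name no infection, interferon or other stimulus and no second genotype, so the values describe occupancy in growing cells only. The labels give both formaldehyde fixation and the term native ChIP-seq, and do not say whether the replicates were separate cultures. Peak lists hold no expression values, so the labelled cell type was not checked against marker genes.

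In these pathways, receptors and sensors of microbial products signal through adaptor proteins to kinases, which activate interferon regulatory factors (IRFs) and NF-kB. Interferons released in response bind receptors on neighbouring cells, whose Janus kinases activate STAT factors and, with them, the interferon-induced genes. Deaf1 is a DNA-binding factor with a SAND domain that recognises the letters TTCG, and it has been linked to interferon production.

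Few pathway genes carried a Deaf1 peak at an end, and the counts were too small to set them apart from genes in general. A gene was counted as bound when a peak lay within 1 kb of either end of its annotated span. In the combined list, which holds the 1550 regions found in both ChIP libraries, Jak2 was the 1 bound gene of the 48 (2.08%), whereas 6.99% of all protein-coding genes were bound. The replicate 1 list also gave 1 gene of 48, again Jak2, where 7.53% of all genes were bound. The replicate 2 list gave 4 of 48 (8.33%), namely Jak2, Ifnar1, Irf1 and Ticam1, where 11.2% of all genes were bound. At the share seen among the other 21835 genes, 48 genes would hold 3.36 bound genes in the combined list, 3.62 in replicate 1 and 5.40 in replicate 2. The pathway list fell below these numbers by fewer than 3 genes in each list. With numbers this small, such a gap cannot tell the list from the background. The shares are therefore not a result about the pathway. Within 20 kb the share of the 48 genes was slightly above that of the other genes. It was 16.7% (8 genes) against 13.8% in the combined list and 16.7% (8 genes) against 14.8% in replicate 1. In replicate 2 it was 22.9% (11 genes) against 20.9%. These gaps are small too and are not a result about the pathway. The lists are also not independent, since the combined list holds regions found in both libraries.

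**Figure D1:**
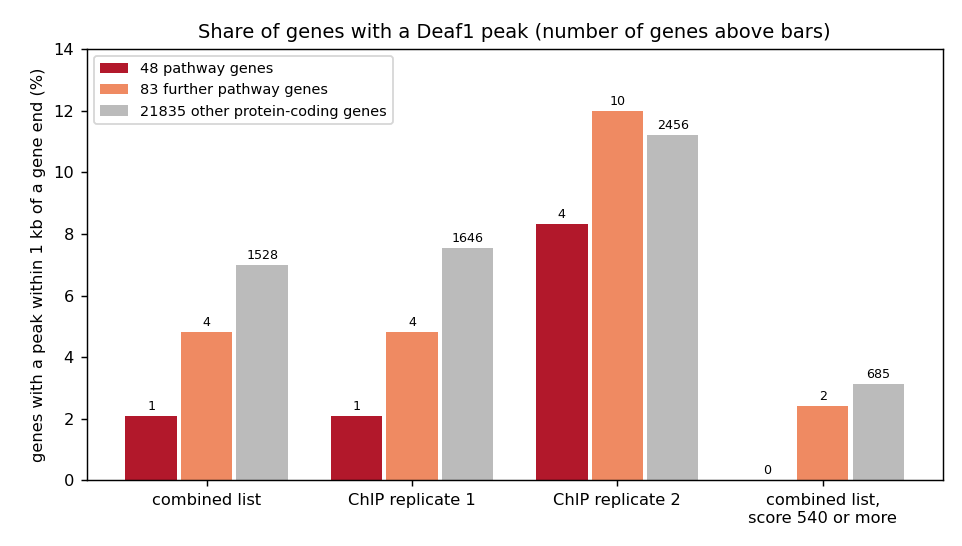
Percentage of genes with a Deaf1 peak within 1 kb of a gene end (vertical axis) in the combined list, in each ChIP replicate and in the combined list at a score of at least 540. Bars show the 48 pathway genes, 83 further pathway genes and the 21835 protein-coding genes other than the 48, with the number of bound genes above each bar. The bar of the 48 genes lies below the grey bar in each group, and 0 of them remain at the score of at least 540.

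The regions were graded by the irreproducible discovery rate (IDR), which estimates how likely it is that a region's rank does not repeat between replicates, and a score of at least 540 stands for an IDR of at most 0.05. None of the 48 genes had a region at that score, where 3.13% of all genes had one. Within 5 kb of a gene end, 3 of the 48 genes (Jak2, Relb and Isg15) had a combined region, where 8.77% of all genes had one. Measured from the RefSeq transcription starts, which exist for 42 of the 48 genes and also cover internal starts, 2 genes (Jak2 and Ikbkg) had a combined region within 1 kb. Of all genes with such a start, 7.31% had one.

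Of the 2460 protein-coding genes with a replicate 2 peak at an end, 62.2% also had a combined region there. Among the pathway genes this held for 1 of 4. A peak list gives no value below its threshold, so the height in replicate 1 at Ifnar1, Irf1 and Ticam1 is not known.

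The replicate 1 list held 1860 peaks and the replicate 2 list 3126. The fold enrichment of each peak is the authors' own ratio over the local background, with a median of 6.87 in replicate 1 and 6.41 in replicate 2. How many fragments covered each summit was solved from the deposited fold and p, with medians of 22 and 23. The lowest background in the lists, which stands for the genome-wide level, was 1.80 fragments in replicate 1 and 2.09 in replicate 2. Each interval given beside a number of fragments is an exact Poisson interval at the 95% level and covers counting error only.

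Among the interferon receptors and Janus kinases, 1 of 7 genes had a combined region and 2 of 7 had a replicate 2 peak. Of all genes, 6.99% and 11.2% had one, so counts in classes of at most 8 genes are description only. Jak2 encodes a Janus kinase that transmits the signal of the interferon-gamma receptor and of many cytokine receptors. Its region spanned chr19:29251456-29251750 (GRCm38), just upstream of the gene, which runs from 29251803 to 29313095 on the plus strand. Both libraries placed the summit at the same base, 29251533, which is 270 bp upstream of the annotated start. The next protein-coding gene end, that of Insl6, was 69821 bp away.

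In replicate 1 the Jak2 summit held 14 fragments (interval 7.65 to 23.5), and in replicate 2 it held 18 (interval 10.7 to 28.4). The background was at the genome-wide level in both. The fold enrichment was 5.35 in replicate 1 and 6.15 in replicate 2, a mean of 5.75 ± 0.56 (SD, n = 2). In fold the peak stood low in the replicate 1 list, where 21.9% of peaks had a lower fold. It stood near the middle of the replicate 2 list, where 44.6% had a lower fold. The authors' q was 1.19e-05 in replicate 1 and 1.34e-08 in replicate 2. The combined list gave the region its lowest score, 121, an IDR of 0.513, which it shares with 377 regions in all.

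The stretches below are the parts of the peaks that the RefSeq promoter table (GRCm38.p6) holds ahead of the annotated start, or at Ifnar1 ahead of the gene's first base. They are shown because they are part of the DNA under the peaks at the 4 pathway genes with a peak over an annotated promoter. The letters run 5′ to 3′ on the plus strand, with TTCG on either strand in capitals. The stretches lie at chr19:29251553-29251750 for Jak2, chr16:91484965-91485031 for Ifnar1, chr11:53769972-53770013 for Irf1 and chrX:74429626-74429680 for Ikbkg. The summits at Jak2, Ifnar1 and Irf1, and the replicate 2 summit at Ikbkg, lie outside these stretches.
Jak2: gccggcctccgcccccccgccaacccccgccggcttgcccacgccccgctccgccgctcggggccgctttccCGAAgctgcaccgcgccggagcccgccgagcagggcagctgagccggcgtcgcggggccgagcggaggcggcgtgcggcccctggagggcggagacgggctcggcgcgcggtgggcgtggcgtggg
Ifnar1: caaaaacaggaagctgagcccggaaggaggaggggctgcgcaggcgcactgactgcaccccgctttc
Irf1: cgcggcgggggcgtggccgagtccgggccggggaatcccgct
Ikbkg: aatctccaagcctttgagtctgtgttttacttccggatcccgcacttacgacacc

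The Jak2 stretch held 34 CpG dinucleotides in 198 bases and a single TTCG, on the minus strand, 178 bp upstream of the start and 92 bp from the summit. The stretches of Ifnar1 (4 CpGs in 67 bases), Irf1 (8 in 42) and Ikbkg (3 in 55) held no TTCG. At Irf1 the full promoter window of that start held 3 matches, of which 1 lay inside the peak, 15 bp downstream of the start and 18 bp from the summit. At Ikbkg the 1 match of the window lay outside the peak, 235 bp from its summit. The promoter table covers the whole of the replicate 1 peak at Ikbkg and only a part of each other peak at these genes. Sequence outside the promoter windows was not analysed here.

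Ifnar1, the signalling chain of the type I interferon receptor, carried a peak in replicate 2 only. It spanned chr16:91484932-91485205, over the first base of the gene at 91485032, with its summit 71 bp outside the gene and 254 bp upstream of the annotated start at 91485215. The summit had 19 fragments (interval 11.4 to 29.7) over a background of 2.90, a fold enrichment of 5.13 and a q of 3.86e-07. Of the replicate 2 peaks, 26.7% had a lower fold. The partner chain Ifnar2 and the interferon-gamma receptor gene Ifngr2 lie on the same stretch of chromosome 16, and the 3 genes shared 1 nearest combined region, 20056 bp from Ifnar1 and 59243 bp from Ifnar2. The nearest combined region was 701338 bp from Ifngr1 and 5385596 bp from Jak1, and the nearest replicate 2 peak 576411 bp and 1322502 bp. Tyk2, a Janus kinase of the type I receptor, lay 18497 bp from a region at the gene Cdc37.

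Among the 8 interferon regulatory factors, none had a combined region at an end, and Irf1 had a replicate 2 peak. Of all genes, 6.99% and 11.2% had one. Irf1 encodes a factor that activates many interferon-induced promoters. Its peak spanned chr11:53769972-53770123, with the summit 33 bp inside the gene on the plus strand. The summit had 16 fragments (interval 9.15 to 26.0), but the local background was 4.84, 2.31 times the genome-wide level of that library. The fold enrichment was accordingly 2.91, lower than all but 0.736% of replicate 2 peaks, and the authors' q was 0.0416. No other peak named here for the 48 genes had a lower fold.

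The other IRF genes were at least 12201 bp from a peak in each of the 3 lists. Irf9, which joins STAT factors in the complex that drives interferon-induced genes, was 12201 bp from a region at the start of Rnf31. Irf3, the factor that switches on type I interferon, was 13479 bp from a region at Scaf1. Irf7 lies 30677 bp from Deaf1 itself on chromosome 7. The nearest peak to Irf7 was 34355 bp away in replicate 1 and 34628 bp away in replicate 2, and the nearest combined region 57441 bp away. Irf5, Irf2, Irf4 and Irf8 had their nearest combined region between 67926 bp and 634942 bp away.

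None of the 6 STAT genes had a peak at an end in any list, where 6.99% to 11.2% of all genes had one. Stat6, the factor of interleukin-4 signalling, was nearest, 15773 bp from a region at Nemp1. Stat5b was 42346 bp, Stat2 118616 bp, Stat5a 120966 bp and Stat3 148421 bp from a combined region, and Stat4 2980720 bp. Stat3, Stat5a, Stat5b and the sensor gene Dhx58 lie together on chromosome 11 and shared 1 nearest region. The 48 genes had 39 different nearest regions, so their distances are not independent of each other.

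Of the 8 Toll-like receptor genes, none had a peak at an end in any list. Among all genes, 6.99% to 11.2% had one. The nearest combined region to any Toll-like receptor gene was 203 kb away, from Tlr9. The nearest replicate 1 peak to Tlr9 was 62549 bp away. Tlr4, the receptor of bacterial lipopolysaccharide, was 4356527 bp from a combined region, and the median over the class was 599 kb. The medians of the RNA sensors (3555 kb, 2 genes) and of the interferon-induced effectors (3484 kb, 4 genes) were larger. These medians rest on few loci and do not rank the classes. That of the sensors averages the unlike distances of Ifih1 and Dhx58 given below. Among the effectors, Isg15 was 2203 bp from a region, and the neighbours Ifit1, Ifit2 and Ifit3 shared 1 nearest region. Tlr1 and Tlr6, which are neighbours on chromosome 5, shared their nearest region, as did Tlr3 and Irf2 on chromosome 8. The RNA sensor gene Ifih1 was 7076490 bp from a combined region and 1002445 bp from a replicate 1 peak, and Dhx58 was 33865 bp from a combined region.

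**Figure D2:**
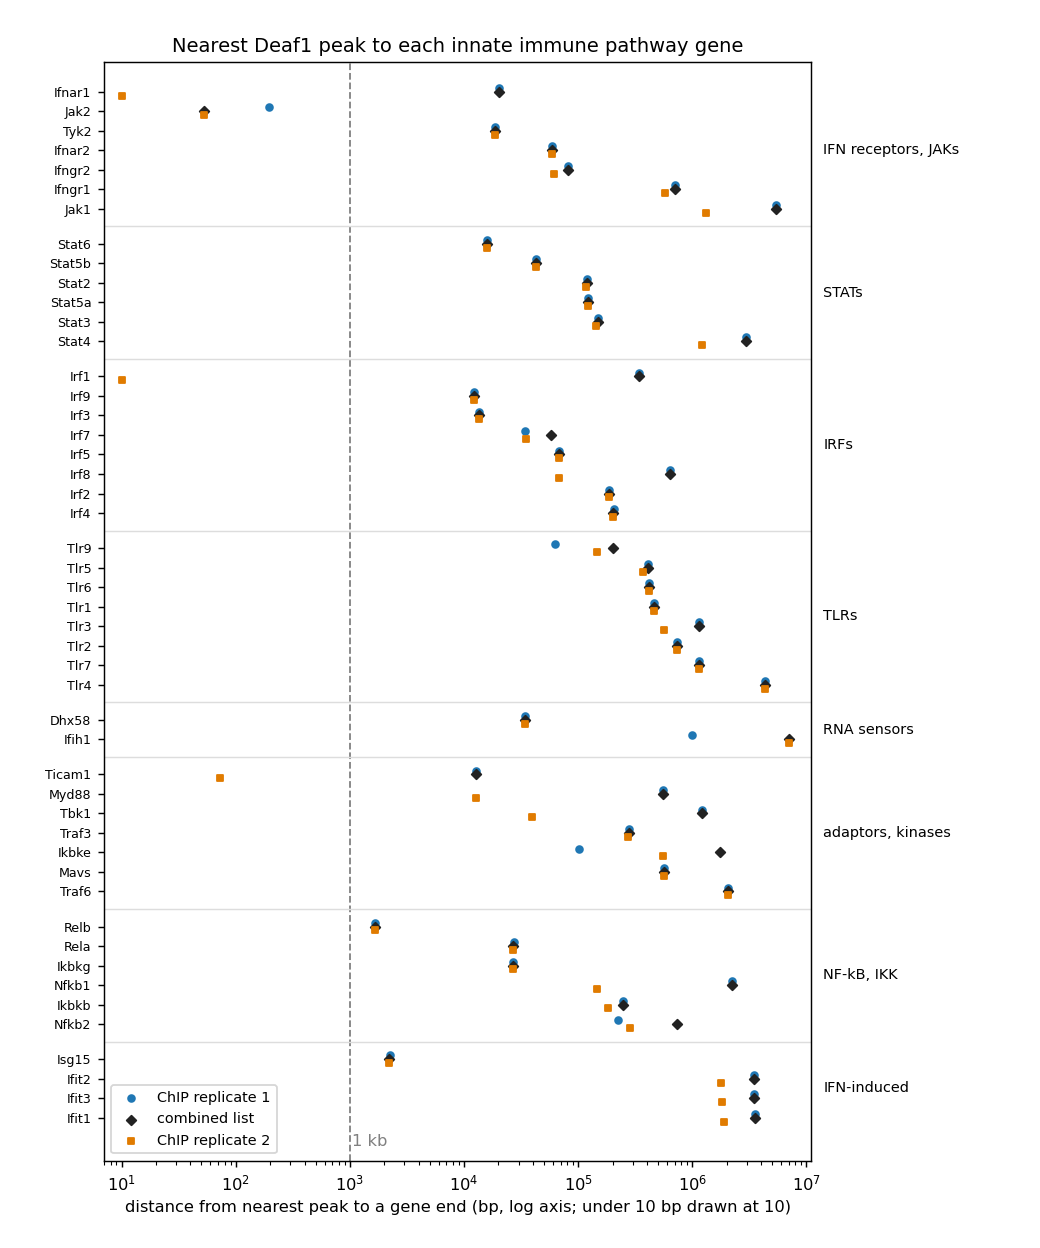
Distance in bp, on a log axis, from the nearest Deaf1 peak to an end of each of the 48 pathway genes, grouped by role; diamonds are the combined list, circles ChIP replicate 1 and squares ChIP replicate 2. Jak2 is the gene with all 3 symbols left of the dashed line at 1 kb; Ifnar1, Irf1 and Ticam1 have the replicate 2 square there alone.

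Of the 7 adaptor, TRAF ligase and TBK1 or IKK-epsilon kinase genes, Ticam1 had a replicate 2 peak at an end. None had a combined region there. Among all genes, 11.2% had such a peak and 6.99% such a region. Ticam1 encodes TRIF, the adaptor of Tlr3 and Tlr4. Its peak spanned chr17:56269276-56269390, at the far end of the gene: the gene runs from 56269462 to 56276767 on the minus strand, and the summit lay 146 bp beyond its last base and 7451 bp from its annotated start. The summit had 27 fragments (interval 17.8 to 39.3) over a background of 3.87, 1.85 times the genome-wide level, with a fold of 5.75 and a q of 2.82e-11. The next gene end, that of Fem1a, was 5708 bp away, and a combined region lay at Fem1a, 12676 bp from Ticam1. Myd88, the adaptor of most Toll-like receptors, had a replicate 2 peak 12839 bp away, at Oxsr1. Mavs, Traf3, Traf6, Tbk1 and Ikbke were at least 39676 bp from a replicate 2 peak.

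Among the 6 NF-kB and IKK genes, none had a peak within 1 kb of a gene end in any list, where 6.99% to 11.2% of all genes had one. However, Ikbkg had a combined region inside its span. Ikbkg encodes NEMO, the regulatory subunit of the IKK complex. The region spanned chrX:74429626-74429734, and its summit lay 9 bp upstream of an internal Ikbkg start at 74429681 in replicate 1 and 10 bp downstream of it in replicate 2. The outermost gene ends, at 74393233 and 74456792, were at least 27058 bp away from the region, so it was not counted as bound above. An end of G6pdx, the gene of glucose-6-phosphate dehydrogenase, was 792 bp from the replicate 1 summit, so which of them it belongs to is not resolved.

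At Ikbkg, replicate 1 had 20 fragments (interval 12.2 to 30.9). Replicate 2 had 25 (interval 16.2 to 36.9), and both stood over the genome-wide background. The fold was 7.50 and 8.42, a mean of 7.96 ± 0.65 (SD, n = 2), and the IDR 0.0617. In fold it stood above 56.8% of replicate 1 peaks and 72.4% of replicate 2 peaks.

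Relb and Isg15 lay just outside the 1 kb limit. Near Relb, an NF-kB subunit of the non-canonical pathway, the combined region spanned chr7:19604417-19604569, 1648 bp from the gene. Its 28 fragments in replicate 1 had an interval of 18.6 to 40.5, and the 27 of replicate 2 one of 17.8 to 39.3. The folds were 10.4 and 9.07, a mean of 9.71 ± 0.91 (SD, n = 2). The summits were 20 bp and 33 bp from an end of Clasrp, a splicing regulator gene, and 1720 bp and 1733 bp from Relb. The IDR was 0.0513. Rela was 27015 bp from a combined region, and Nfkb1, Nfkb2 and Ikbkb between 247755 bp and 2226451 bp. The farthest of these, Nfkb1, was 146157 bp from a replicate 2 peak.

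Isg15 encodes a ubiquitin-like protein that interferon induces. The region near it, chr4:156203021-156203210, was 2203 bp from the gene, and its summits were 131 bp and 149 bp from an end of Perm1, a regulator of muscle metabolism. It had 14 fragments in replicate 1 and 18 in replicate 2, the same as at Jak2, and therefore the same folds of 5.35 and 6.15 and an IDR of 0.513. The other interferon-induced effectors, Ifit1, Ifit2 and Ifit3, form a cluster on chromosome 19 and were between 3467512 bp and 3557851 bp from their shared nearest combined region.

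**Figure D3:**
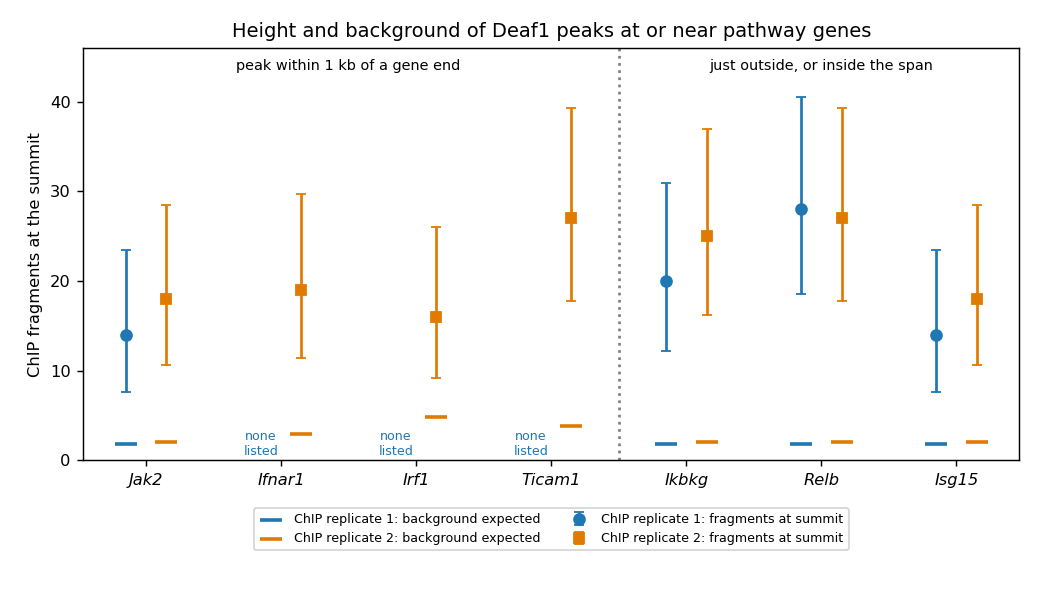
ChIP fragments at the summit (vertical axis) of the Deaf1 peaks at or near 7 pathway genes, with 95% exact Poisson intervals, for ChIP replicates 1 (circles) and 2 (squares); short horizontal bars are the background expected there. Ifnar1, Irf1 and Ticam1 have no listed peak in replicate 1. The background under their replicate 2 peaks, 2.90 to 4.84, lies above the 2.09 under the others. Of the 1979 replicate 2 peaks at gene ends in general, 59.2% had a background above the lowest level, so this does not set the 3 apart.

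Regions close to pathway genes mostly sat at the end of another gene. A combined region lay within 20 kb of 8 of the 48 genes, and at 7 of these 8 its centre was closest to the end of a gene outside the list, 12 to 166 bp away. The exception was Jak2. Among the 7, the region near Irf9 sat at Rnf31, a gene of the wider pathway list described below. Of the other protein-coding genes, 2978 had a combined region within 20 kb and 1528 had one within 1 kb. How often a neighbour was closer was not counted for them, so 7 of 8 cannot be called particular to the pathway. Over all 48 genes the median distance to a combined region was 262 kb, and over the 21579 other genes on chromosomes with a region it was 339 kb. For replicate 2 peaks these medians were 144 kb and 168 kb.

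In median CpG content the promoters of the pathway genes stood near all promoters and below the promoters that carry Deaf1 regions. Their lower quartile was above that of all promoters. RefSeq promoters (250 bases before to 50 bases after a start, GRCm38.p6) were matched by symbol for 42 of the 48 genes and gave 56 windows. Dhx58, Ikbkb, Nfkb1, Relb, Tlr4 and Tlr7 had none. The median ratio of observed to expected CpG was 0.562 (interquartile range 0.372 to 0.804) in the 56 windows and 0.567 (0.226 to 0.827) in all 21262 windows of protein-coding genes. In the 1306 windows overlapped by a combined region it was 0.873 (0.751 to 0.985). All windows were ranked by this ratio and cut into 5 bins of like size. In the top bin 15.4% of windows were overlapped by a region, and in the bottom bin 0.0235%. Of the pathway windows, 10 fell in the top bin, of which 1 (Jak2) was overlapped. The bottom 2 bins held 5 and 15 pathway windows, none of them overlapped.

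By class, the median ratio was highest for the interferon receptors and Janus kinases, 0.843 over 7 windows. The RNA sensors had a single window (Ifih1, 0.819). It was 0.395 over 8 windows of Toll-like receptors and 0.377 over 5 windows of interferon-induced effectors. Irf1 stood at 0.912 and Ifnar1 at 0.787, whereas the internal Ikbkg start had 0.575. The part of CpG content in these differences was not tested.

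**Figure D4:**
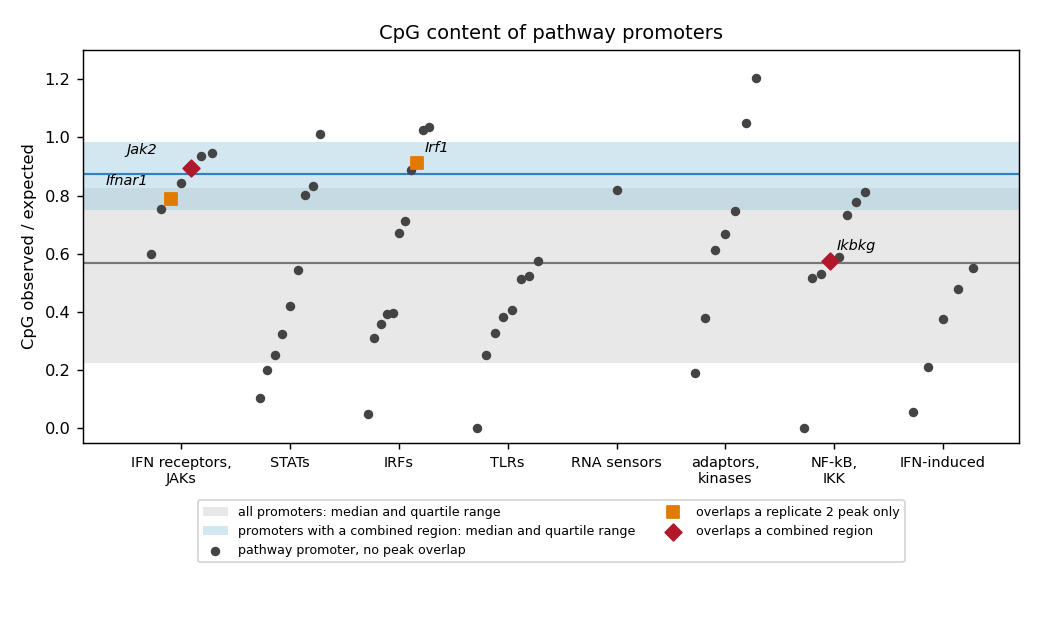
Ratio of observed to expected CpG (vertical axis) in each of the 56 RefSeq promoter windows of the pathway genes, by role. Shaded bands are the interquartile ranges, and lines the medians, of all promoters (grey, median 0.567) and of those with a combined region (blue, median 0.873); diamonds are windows with a combined region, squares those with a replicate 2 peak alone.

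The letters TTCG, searched on both strands, were present in 33 of the 56 pathway windows (58.9%) and in 49.1% of all windows. Among windows overlapped by a combined region the share was 71.9%. Of all windows with TTCG, 9.0% were overlapped by a combined region, against 3.39% of those without. The letters TTCG include a CpG, and overlap also rose with CpG content, so the part of each was not separated or tested. Among the pathway windows, 2 of the 33 with TTCG (at Jak2 and Ikbkg) and 0 of the 23 without were overlapped. At Ikbkg the match lay outside the peak. These counts are too small to compare. The longer TTCGG, each match of which is also a TTCG match, was present in 37.5% of pathway windows, 22.0% of all windows and 41.0% of windows overlapped by a combined region. Of the pathway windows, 1 of the 21 with TTCGG and 1 of the 35 without were overlapped. A match describes these letters only and is not evidence of binding.

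The core of the IRF binding element, GAAANNGAA on either strand, was present in 9 of the 56 windows (16.1%) and in 8.14% of all windows. The 9 genes were Ifih1, Ifit1, Ifit3, Irf2, Isg15, Myd88, Stat2, Stat4 and Tlr6. None of them had a Deaf1 peak within 1 kb of a gene end in any list, and Isg15, at 2203 bp, was the nearest. Among all genes, 6.99% to 11.2% had one, so 0 of 9 genes is description only. Over all genes, a combined region overlapped 6.53% of windows with these letters and 6.11% of those without. The Isg15 promoter is shown because it is the one of these 9 with the nearest Deaf1 peak. With Ifit1 and Ifit3 it also had 3 matches, the highest number among the pathway windows. The stretch is chr4:156200856-156200916 (RefSeq, GRCm38.p6), 5′ to 3′ on the minus strand, with the 3 overlapping matches in capitals and 1 match to TTCG among them on the other strand.
Isg15: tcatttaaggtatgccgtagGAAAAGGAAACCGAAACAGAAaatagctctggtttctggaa

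A wider list of further pathway genes was read in the same way. Of 85 names, 83 matched protein-coding genes. In the combined list 4 of 83 (4.82%) were bound and in replicate 1 also 4, where 6.99% and 7.53% of all genes were bound. In replicate 2, 10 of 83 (12%) were bound, where 11.2% of all genes were. The 4 genes of the combined list were Rnf31, Dhx36, Sharpin and Ripk1, and the interferon-beta gene Ifnb1 had no peak within 1 kb in any list. Rnf31, the catalytic subunit of the linear ubiquitin ligase that acts on NEMO, had a fold of 7.85 and 9.71, a mean of 8.78 ± 1.3 (SD, n = 2), with the replicate 2 summit 7 bp from its end and 605 bp from Psme2. Dhx36, an RNA helicase, had 7.41 and 9.67, a mean of 8.54 ± 1.6 (SD, n = 2). Sharpin, another subunit of that ligase, had 5.67 and 7.60, a mean of 6.64 ± 1.4 (SD, n = 2). At Ripk1, a kinase of cell death and NF-kB signalling, the folds were 5.76 and 6.41, a mean of 6.08 ± 0.46 (SD, n = 2), and the summits were closer to an end of Serpinb6a (21 bp and 46 bp). The IDR was at most 0.05 at Rnf31 (0.0363) and Dhx36 (0.0324). The other 6 genes had a peak in replicate 2 alone, with folds between 5.50 and 7.45.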

How the data were processed

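The files held 1 narrowPeak list for each of the 2 ChIP libraries and 1 combined list. Per the submitters' processing notes, FastQC 0.11.8, BWA 0.7.17-r1198 and MACS2 2.1.2 were used with build mm10. Whether duplicates were removed is not given in the sources used here. The deposited fold enrichment is a linear ratio to local background, and the deposited p and q are −log10 values. The combined list has the 14-column layout of the IDR program, and its deposited score grades the pair of libraries. Its 6 columns of values for single samples, which carry no names, were not used.

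Each summit's whole fragment number was solved from fold = (fragments + 1)/(background + 1) and the Poisson p. Exactly 1 number matched within 0.0001 of −log10 p for 100% of peaks in both lists, and 100% of 500 simulated summits were recovered. Gene spans came from a RefSeq table (GRCm38.p6, the build also called mm10). Python 3.11.15, pandas 2.3.3 and scipy 1.17.1 were used.

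Genes named with values were those with a peak within 1 kb of an end, and those with a peak up to 5 kb away or inside the span. The gene lists and rules were chosen with earlier results of these data known. With 1 group of libraries and a list chosen so, no test was run, and shares are set beside those of all genes. The GAAANNGAA search was added after the data were seen. Alternatives covered distance, starts, score, q, summits, replicates and the motif.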

Additional observations from a re-analysis of the deposited data

How the results depend on the processing

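The share of the 48 genes with a peak was below that of the other genes in each of the 3 lists at each distance up to 5 kb and each threshold tried. Within 20 kb it was slightly above in all 3. The lists are not independent, and neither direction can be told from the background at these counts. The counts, being small, moved. In the combined list the count of 1 became 2 within 2 kb (other genes 7.59%), 3 within 5 kb, 2 for the gene span plus 1 kb, 2 for annotated starts and 0 at a score of at least 540; leaving out 1 replicate gave 1 to 4. In replicate 1 the count of 1 became 2 within 2 kb, 3 within 5 kb, 2 for the span, 2 for annotated starts and 0 at a −log10 q of at least 5, where the peak at Jak2 was lost. In replicate 2 the count stayed between 3 and 6. In the wider list the count of 4 was 2 at a minimum score of 540. With 1 replicate left out it ranged from 4 to 10, and at 10 the share of 12% was above the other genes' 11.2%. With TTCGG in place of TTCG, 21 of 56 windows matched. Taking the peak nearest the gene end tests nothing, since each named gene had 1 peak per list. No paired analysis was possible because only ChIP libraries have peak lists and no second group was compared. At 14 to 28 fragments per summit, counting error limits any ranking of these peaks, and no input signal, repeat content or mappability was analysed.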

Other observations

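Of the wider pathway list, the 3 subunits of the linear ubiquitin chain assembly complex, Rnf31, Sharpin and Rbck1, all had a replicate 2 peak within 1 kb of a gene end, where 11.2% of all genes had one. They were singled out after their peaks were seen, from a list whose share in replicate 2 (12%) was near that background, so the count is a description only. This complex attaches linear ubiquitin chains to NEMO, the product of Ikbkg. Rbck1 had 23 fragments (95% exact Poisson interval 14.6 to 34.5), a fold of 6.15 and a summit 11 bp from an annotated start. At Sharpin the summits, of 21 and 26 fragments, lay 552 bp and 564 bp from an end of Maf1, so which of them it belongs to is not resolved. The other 5 genes of the wider list with a replicate 2 peak alone were Chuk, Tnfaip3, Map3k7, Ptpn11 and Nfkbie. Chuk, the IKK-alpha kinase, had a summit 7 bp from its end and a fold of 5.50. Tnfaip3, the inhibitor A20, had a summit 83 bp from its end and a fold of 5.90. Map3k7, the kinase TAK1, had a summit 341 bp from its end and a fold of 7.45. Ptpn11, the phosphatase SHP2, had a summit 54 bp from its end and a fold of 6.48. At Nfkbie, the inhibitor IkB-epsilon, the fold was 5.50, and the summit lay 722 bp from its end and 22 bp from an end of Slc35b2.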
